A study of Mus musculus with 36 samples.

Results

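Interleukin-6 family cytokines are small secreted proteins that act through a shared signalling chain, and 9 genes of the family and its signalling route were followed here in mouse skin and skin wounds. They were chosen by name from the 55414 genes of the count tables: the ligands Il6, Osm, Lif and Il11, the receptor chains Il6ra, Il6st and Osmr, the transcription factor Stat3 and the feedback inhibitor Socs3. All 9 passed the filter on low counts and were tested among 20657 genes.

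In this family a ligand acts through its own receptor chain together with gp130, the chain encoded by Il6st, which nearly all cells carry. Interleukin-6 needs the alpha chain encoded by Il6ra, oncostatin M (Osm) pairs gp130 with the chain encoded by Osmr, and leukaemia inhibitory factor (Lif) pairs it with Lifr. Kinases bound to these chains phosphorylate STAT3, which enters the nucleus and switches on genes that include Socs3, whose protein then shuts the receptor complex down. In skin wounds the family is known for its part in inflammation and in the regrowth of the epidermis, and oncostatin M is known as a product of activated neutrophils and macrophages.

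Stranded, poly(A)-selected RNA sequencing was done on 36 libraries of skin tissue. Unwounded skin had 3 libraries. Wounds carried the arm label P or PD, which the labels do not spell out, and were taken at day 2, 4 or 12 after injury: P had 5, 5 and 6 libraries on these days and PD had 5, 6 and 6. The labels used here give no genotype, strain, agent or age for any group, and the unwounded skin has no arm. The series title concerns the removal of senescent cells with high p21, so the comparisons asked how wounding moved these genes and whether PD differed from P. Nothing in the labels says which animals the libraries came from, so each p-value measures the spread between these samples, which may be technical.

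Libraries held 11.807 to 58.376 M counts, with a median of 30.397 M. Levels are given as CPM, the count of a gene scaled to a library of 1000000 counts, after TMM scaling, and calls are those with an adjusted p (Benjamini-Hochberg, over all tested genes) under 0.05 in edgeR's quasi-likelihood test. Keratinocyte marker genes summed to 14369 to 22980 CPM in unwounded skin and were at or above 2999 CPM in every wound library, so the labelled tissue carried its markers. Skeletal muscle genes were also high, from 49879 to 80416 CPM in unwounded skin and from 1573 to 56113 CPM in wounds. Within groups, libraries parted along a component that held 22% of the variance around group means. P day 4 replicate 3 stood apart with hair follicle genes at 4962 CPM, against at most 9.0 CPM in the other P day 4 libraries. In whole tissue, fewer cells of a type and less RNA per cell cannot be told apart.

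The 9 genes lie on 6 chromosomes of GRCm39. Osm (chr11:4186420-4191026) and Lif (chr11:4207557-4222514) are neighbours on the plus strand, and Stat3 (chr11:100775924-100830450) and Socs3 (chr11:117856905-117860898) lie on the minus strand of the same chromosome. Il6 is at chr5:30218112-30224979, Il11 at chr7:4775372-4785858, Il6ra at chr3:89771366-89820719, Il6st at chr13:112600604-112646620 and Osmr at chr15:6843053-6904450. Annotated genes overlap Il6, Il6ra, Il6st, Osmr, Stat3 and Socs3 on the opposite strand, and the strand setting of the counting is not given in the sources used here, so reads of such a pair cannot be told apart. Lif, Osm and Il11 have no such overlap.

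Since several of these genes moved together in wounds, the 250 bases before their start sites were searched for short motifs. RefSeq windows (GRCm38.p6 table) were found for 8 of the 9 genes, with Osm the gene not matched, and each window occurred once in GRCm39. The motifs were the STAT motif TTCNNNGAA, the NF-kB motif (GGGA, any 2 bases, TTCC), the AP-1 motif TGANTCA and the CRE motif TGACGTCA, on both strands. Of 32851 windows of this length, 7.02% held the STAT motif, 1.21% the NF-kB motif, 6.75% the AP-1 motif and 1.55% the CRE motif. A match was found in 4 of the 8 genes, and these are shown 5′ to 3′ on the gene's strand with the matched letters in capitals. The whole window is given for Il6, at chr5:30217862-30218111 on the plus strand, because it held 2 matches: AP-1 from base -249 to -243 and NF-kB from base -44 to -35 before the start.
Il6: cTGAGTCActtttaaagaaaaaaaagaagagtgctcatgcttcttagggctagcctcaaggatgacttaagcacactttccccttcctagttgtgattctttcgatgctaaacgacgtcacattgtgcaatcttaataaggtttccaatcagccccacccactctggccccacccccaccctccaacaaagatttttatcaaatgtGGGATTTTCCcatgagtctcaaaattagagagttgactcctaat
The other matches are given with 10 bases on either side: AP-1 in Lif (chr11:4207330-4207356, plus strand) and at a second start site of Il11 (chr7:4781222-4781248, minus strand), and STAT in Socs3 (chr11:117860328-117860356, minus strand).
Lif: cagtcagctgTGACTCAggccatagtg
Il11: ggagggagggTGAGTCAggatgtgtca
Socs3: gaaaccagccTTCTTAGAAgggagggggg
These are letter matches only. The start sites are those of RefSeq and need not be the gene ends given above. The Il11 and Socs3 matches and the whole Osmr window (chr15:6903795-6904044) lie within the gene bounds given above. None of the motifs was found in the windows of Il6ra, Il6st, Osmr and Stat3.

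Wounding raised all 4 ligands. Il6 had 0 counts in each of the 3 unwounded libraries, which allows up to 0.0313 CPM over the group at 3 counts. At day 2 it stood at 14.8, 9.16, 8.92, 11.3 and 6.32 CPM in P wounds and at 21, 8.82, 5.94, 8.49 and 16.8 CPM in PD wounds. These levels were at least 323-fold (P) and at least 391-fold (PD) above unwounded skin (edgeR adjusted p = 3.23e-06 and 3.02e-06).

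Every day 2 library therefore held more Il6 than any unwounded library, and the ranges of both arms overlapped, with 2 PD libraries above all P libraries and 1 below. By day 4 Il6 stood at 2.49, 2.13, 0.636, 2.19 and 8.19 CPM in P wounds and between 1.65 and 7.59 CPM (median 4.32, n = 6) in PD wounds. Against unwounded skin this was at least 100-fold in P (adjusted p = 4.04e-05, edgeR) and at least 141-fold in PD (adjusted p = 1.37e-05). Without P day 4 replicate 5, the library at 8.19 CPM, the P bound was 59.5-fold. The difference between day 2 and day 4 was not called in P (log2 change -1.68, SE 0.66, adjusted p = 0.116) or in PD (-1.47, SE 0.62, adjusted p = 0.181). Without P day 4 replicate 5 the P change was -2.44 with an adjusted p of 0.0314.

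At day 12 Il6 ran from 0.318 to 8.53 CPM in P (median 0.812, n = 6) and from 0.0558 to 0.721 CPM in PD (median 0.379, n = 6). P day 12 replicate 1 held the 8.53 CPM, and the other 5 P libraries reached at most 1.91 CPM. Il6 stayed above unwounded skin in both arms, by at least 70.1-fold in P (29.5-fold without replicate 1) and at least 13-fold in PD, with adjusted p = 8.25e-05 and 0.00473 in edgeR. From day 4 to day 12 it fell in PD (log2 -3.42, SE 0.68, adjusted p = 0.000255), while the P change was -0.51 (SE 0.63, adjusted p = 0.598). The P value rested on single libraries: it was -1.77 (adjusted p = 0.0171) without P day 12 replicate 1 and 0.24, not called, without P day 4 replicate 5. Ranked by mean level, PD day 2 led and was followed by P day 2, PD day 4, P day 4, P day 12, PD day 12 and unwounded skin. The ranges of neighbours in this order overlapped, except that every wound library stood above unwounded skin.

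Osm rose from a trace in unwounded skin, and it changed more than any other member whose fold can be given. Unwounded skin held 0.336, 0.12 and 0.262 CPM, from 20 counts in all. At day 2, P wounds held 157.0, 128.0, 190.2, 135.0 and 85.4 CPM and PD wounds 93.6, 62.4, 85.6, 109.6 and 157.0 CPM. The log2 changes were 9.27 (SE 1.42) in P and 8.81 (SE 1.40) in PD, with adjusted p = 5.3e-06 and 1.12e-05 in edgeR.

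No wound library of day 2 or day 4 came near unwounded skin. At day 4, Osm stood at 147.0, 90.6, 56.4, 237.0 and 76.0 CPM in P and from 78.9 to 426.0 CPM in PD (median 171.0, n = 6). Those levels were 9.07 (SE 1.42, adjusted p = 7.63e-06, edgeR) and 9.80 (SE 1.44, adjusted p = 2.39e-06) above unwounded skin in log2. Between day 2 and day 4 no change was called in P (log2 -0.20, SE 0.74) or PD (0.99, SE 0.72).

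By day 12 Osm had fallen in both arms, with log2 changes against day 4 of -5.79 (SE 0.85, adjusted p = 1.16e-05) in P and -5.48 (SE 0.82, adjusted p = 5.34e-06) in PD. These were the largest falls of the 9 genes in either arm, and they were -6.38 without P day 12 replicate 1 and -7.34 without PD day 12 replicate 2. Day 12 levels ran from 0.294 to 5.88 CPM in P (median 0.984) and from 0.418 to 20.3 CPM in PD (median 1.12), so no day 12 library reached any day 4 library. One PD library, replicate 2, held the 20.3 CPM, and the next held 3.38 CPM. Against unwounded skin Osm was still higher in PD at day 12 (log2 4.32, SE 1.22, adjusted p = 0.00514) and stood at 2.47 (adjusted p = 0.0373) without that replicate. With only the libraries compared in the fit the PD value was 4.27 and was not called (adjusted p = 0.0553). In P the day 12 call (3.28, SE 1.21, adjusted p = 0.0275) was lost without replicate 1 or 2 of that group (2.69 and 2.95, adjusted p = 0.0691 and 0.0508). It was also lost without unwounded replicate 1, 2 or 3 (3.67, 2.91 and 3.37, adjusted p = 0.0575, 0.113 and 0.0639), and with no filter on low counts (3.32, adjusted p = 0.0544).

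Neutrophil marker genes (8 genes, summed) moved with Osm. They stood at 0.786 to 2.43 CPM in unwounded skin, where Retnlg, Ly6g and Trem1 had 0 counts, and at 4920 to 9694 CPM in P and 2379 to 4886 CPM in PD at day 2. At day 4 the sum was 2489 to 9283 CPM in P and 2614 to 13915 CPM in PD, and at day 12 it was 11.9 to 454.0 and 8.0 to 361.0 CPM. In 5 of the 6 wound groups the library with the highest Osm was also the one with the highest neutrophil sum, among them PD day 4 replicate 3 (426.0 CPM of Osm, neutrophil sum 13915 CPM) and PD day 12 replicate 2 (361.0 CPM of the markers). Monocyte and macrophage genes (8, summed) also went from 129.0 to 333.0 CPM in unwounded skin to 3314 to 5955 CPM in P and 2467 to 3693 CPM in PD at day 2. The part of either cell type in the Osm levels was not tested.

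**Figure D1:**
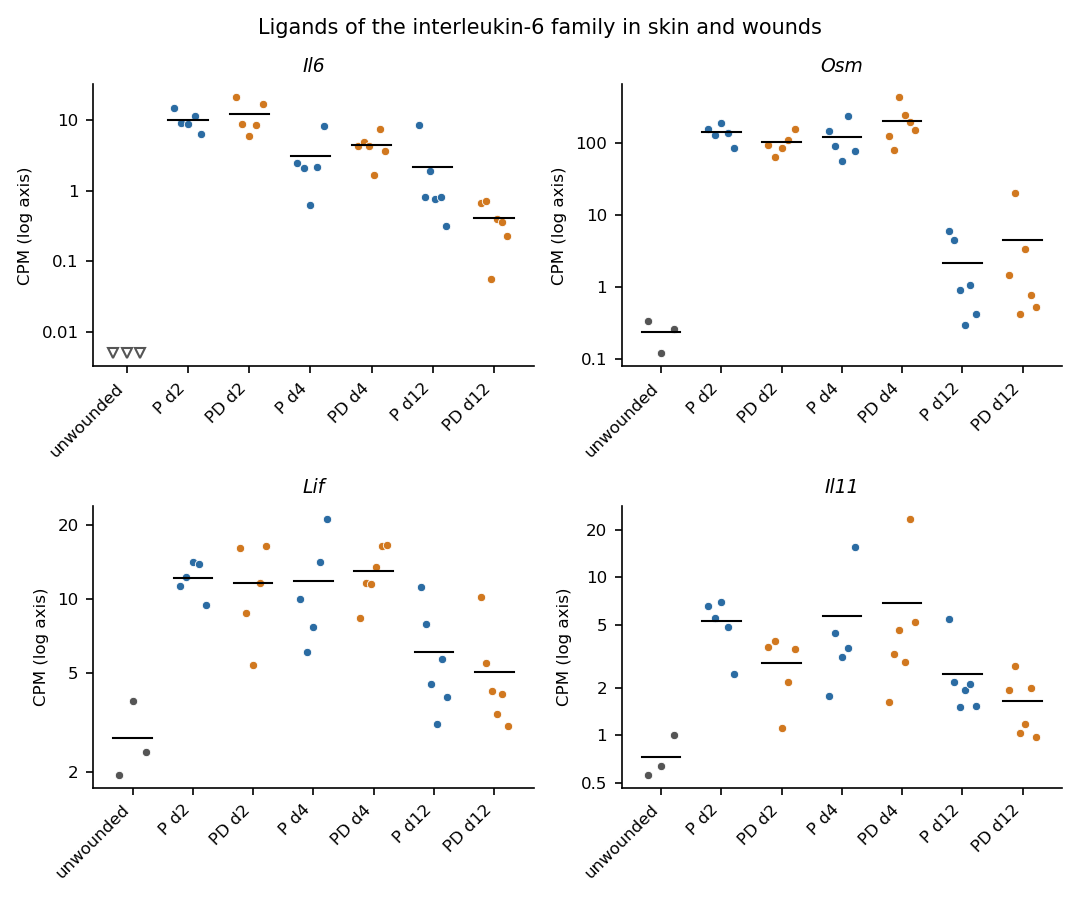
Levels of Il6, Osm, Lif and Il11 in CPM (log axis) in each library of unwounded skin (grey), P wounds (blue) and PD wounds (orange) at days 2, 4 and 12; black lines are group means and open triangles mark 0 counts. Osm held 56.4 CPM or more in every day 2 and day 4 wound library and at most 20.3 CPM at day 12.

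Lif and Il11 rose less. Lif stood at 1.94, 3.87 and 2.41 CPM in unwounded skin and at 12.2 ± 1.9 CPM (SD, n = 5) in P and 11.7 ± 4.77 CPM (n = 5) in PD at day 2. The log2 changes were 2.14 (SE 0.45, adjusted p = 0.000286) and 2.08 (SE 0.45, adjusted p = 0.000433) in edgeR, and no day 2 library overlapped unwounded skin. At day 4 the means were 11.8 ± 6.06 CPM (n = 5) in P and 13 ± 3.17 CPM (n = 6) in PD, higher than unwounded skin by 2.1 and 2.23 in log2 (SE 0.45 each, adjusted p = 0.000388 and 0.000139).

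Day 12 means of Lif were 6.08 ± 3.0 CPM in P and 5.09 ± 2.64 CPM in PD (n = 6 each), and the lowest library of either arm lay within the unwounded range. The fall from day 4 was called in both arms, at -0.96 (SE 0.34, adjusted p = 0.0371) in P and -1.35 (SE 0.33, adjusted p = 0.00188) in PD. The P call was lost without P day 12 replicate 3, 4, 5 or 6 (-0.89, -0.80, -0.94 and -0.86, adjusted p = 0.0751, 0.108, 0.0644 and 0.0851) or P day 4 replicate 4 or 5 (-0.88 and -0.64, adjusted p = 0.0863 and 0.193). It was lost as well with no composition factor, no filter or only the libraries compared (-0.79, -0.93 and -0.94, adjusted p = 0.0649, 0.0683 and 0.127). Against unwounded skin, Lif was called higher at day 12 in P (1.14, SE 0.42, adjusted p = 0.0282) and not in PD (0.89, SE 0.42, adjusted p = 0.0821). The P call was lost without P day 12 replicate 1 (0.87, adjusted p = 0.0797), unwounded replicate 1 (0.94, adjusted p = 0.13) or unwounded replicate 3 (1.06, adjusted p = 0.0937). It was also lost with only the libraries compared (1.16, adjusted p = 0.0563). The PD value passed without unwounded replicate 2 (1.30, adjusted p = 0.0493) and with no composition factor (1.13, adjusted p = 0.0226).

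Il11, a cytokine known for its action on fibroblasts and other stromal cells, rose with more spread between libraries. Unwounded skin held 0.561, 0.638 and 0.996 CPM. P wounds held 6.62, 5.53, 7.02, 4.82 and 2.45 CPM at day 2 and PD wounds 3.64, 3.97, 1.11, 2.17 and 3.50 CPM. All 10 libraries were above unwounded skin, by 2.87 (SE 0.76, adjusted p = 0.00284) in P and 1.99 (SE 0.73, adjusted p = 0.0299) in PD on the log2 scale. The PD call was lost without PD day 2 replicate 2 (1.85, adjusted p = 0.0538), unwounded replicate 1 (1.84, adjusted p = 0.103) or unwounded replicate 2 (1.96, adjusted p = 0.0901).

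At day 4 one library of each arm stood far above the others in Il11. P day 4 replicate 5 held 15.5 CPM against at most 4.44 CPM in the rest, and PD day 4 replicate 5 held 23.5 CPM against at most 5.23 CPM. The changes against unwounded skin were 2.97 (SE 0.76, adjusted p = 0.00223) and 3.24 (SE 0.76, adjusted p = 0.000833) in edgeR. Without those libraries they were 2.16 (adjusted p = 0.0126) and 2.28 (adjusted p = 0.00307). The same P library held the group's highest Il6 (8.19 CPM) and Lif (21.2 CPM) and its highest sum of 7 fibroblast marker genes (10140 CPM, against 3406 to 6474 CPM in the other P day 4 libraries). PD day 4 replicate 5 held that group's highest Il6 (7.59 CPM), with a fibroblast sum of 5909 CPM in a group that ran from 1406 to 7051 CPM. The 7051 CPM was in PD day 4 replicate 2, which held 3.29 CPM of Il11. P day 4 replicate 5 also held its group's highest sums of endothelial (503.0 CPM) and adipocyte (273.0 CPM) marker genes. The part of these cell types in the cytokine levels was not tested.

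By day 12 Il11 stood at 2.44 ± 1.49 CPM in P and 1.64 ± 0.693 CPM in PD (n = 6 each). In PD it had fallen from day 4 (-2.06, SE 0.53, adjusted p = 0.00331), a call lost without PD day 4 replicate 5 (-1.09, adjusted p = 0.0635). In P the change was -1.22 (SE 0.54, adjusted p = 0.0992), with -1.62 (adjusted p = 0.0292) without P day 12 replicate 1 and -0.40 (adjusted p = 0.631) without P day 4 replicate 5. Il11 was called above unwounded skin at day 12 in P (1.75, SE 0.71, adjusted p = 0.0451) and not in PD (1.18, SE 0.70, adjusted p = 0.167). The P call was lost without P day 12 replicate 1 or 5 (1.35 and 1.79, adjusted p = 0.114 and 0.0507) and without unwounded replicate 1, 2 or 3 (1.60, 1.72 and 2.01, adjusted p = 0.136, 0.121 and 0.0642), and with no filter on low counts (1.79, adjusted p = 0.0673).

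The receptor chains did not follow the ligands. Il6ra, the chain that gives a cell its own response to interleukin-6, was the one member that fell at days 2 and 4. It stood at 176.0, 140.5 and 192.0 CPM in unwounded skin, at 80.1, 64.8, 60.9, 69.8 and 65.6 CPM in P and at 70.8, 75.8, 61.0, 53.8 and 59.1 CPM in PD at day 2. No wound library of any day reached unwounded skin, since the highest held 80.1 CPM.

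In edgeR the day 2 log2 changes of Il6ra were -1.31 (SE 0.37, adjusted p = 0.00484) in P and -1.40 (SE 0.37, adjusted p = 0.00304) in PD. At day 4 the means were 60.6 ± 16.6 CPM (n = 5) in P and 56.0 ± 15.5 CPM (n = 6) in PD, with changes of -1.48 (SE 0.37, adjusted p = 0.00175) and -1.60 (SE 0.35, adjusted p = 0.000433). At day 12 Il6ra was lower again, at 28.7 ± 17.7 CPM in P and 24.9 ± 13.2 CPM in PD (n = 6 each). The day 12 changes against unwounded skin were -2.56 (SE 0.35, adjusted p = 1.13e-06) and -2.77 (SE 0.35, adjusted p = 3.47e-07), and those against day 4 were -1.08 (SE 0.31, adjusted p = 0.0119) and -1.17 (SE 0.30, adjusted p = 0.00331). The P change from day 4 was not called with only the libraries compared (-1.05, adjusted p = 0.0759). Skeletal muscle marker genes, at 49879 to 80416 CPM in unwounded skin and at most 56113 CPM in wounds, were also lower in most wound libraries. PD day 4 replicate 3 and PD day 12 replicate 3 lay within the unwounded range of these markers, at 56113 and 51518 CPM. These libraries held 49.6 and 12.6 CPM of Il6ra. The part of muscle in the Il6ra level was not tested.

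Il6st, which encodes the gp130 chain shared by the family, was not called in any comparison, though it passed in some under other settings. Unwounded libraries held 249.6, 332.0 and 210.1 CPM. At day 2, P wounds held 387.0, 480.3, 237.0, 275.0 and 309.0 CPM and PD wounds 451.0, 437.0, 378.0, 229.0 and 238.0 CPM, and both ranges overlapped unwounded skin. The 95% intervals of the log2 change against unwounded skin ran at day 2 from -0.28 to 0.99 in P and from -0.24 to 1.03 in PD, and at day 4 from -0.92 to 0.32 and from -0.95 to 0.25. At day 12 the changes were -0.44 (SE 0.29, adjusted p = 0.229) in P and -0.66 (SE 0.29, adjusted p = 0.0644) in PD. The PD value passed without PD day 12 replicate 1 (-0.78, adjusted p = 0.0314) or 2 (-0.74, adjusted p = 0.0494) and with only the libraries compared (-0.66, adjusted p = 0.0476).

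At PD day 2 the spread of Il6st went with other tissue content. The 3 PD day 2 libraries at 378.0 CPM or more held 515.0 to 659.9 CPM of endothelial markers (6 genes, summed) and 672.0 to 1183 CPM of adipocyte markers (5 genes, summed). The other two held 157.0 and 180.1 CPM of endothelial and 109.7 and 67.2 CPM of adipocyte markers. At P day 12 the library with the most Il6st, replicate 1, had the highest endothelial sum (653.0 CPM) and the lowest adipocyte sum (30 CPM), and the highest adipocyte sum of P day 2 (457.0 CPM, replicate 4) went with 275.0 CPM of Il6st. The part of these cells in the Il6st level was not tested. With a term for the within-group component, chosen after seeing the data, Il6st passed as lower at day 4 than at day 2 in P (-0.62, adjusted p = 0.0137) and PD (-0.71, adjusted p = 0.00541), and as lower at day 12 than in unwounded skin in P (-0.50, adjusted p = 0.0318) and PD (-0.68, adjusted p = 0.0036). Without the term the values were -0.66 (SE 0.27, adjusted p = 0.127) and -0.75 (SE 0.25, adjusted p = 0.0858), the second passing without PD day 4 replicate 2 (-0.90, adjusted p = 0.0368).

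Osmr, the oncostatin M receptor chain, was not called at days 2 and 4, when its ligand was high. Unwounded skin held 65.1, 56.9 and 72.0 CPM, and day 2 wounds held 81.9 ± 16.7 CPM in P and 81.0 ± 14.2 CPM in PD (n = 5 each). The log2 changes were 0.34 (95% interval -0.14 to 0.82) and 0.32 (-0.16 to 0.81), neither called. At day 4 they were -0.18 (-0.66 to 0.29) in P and -0.29 (-0.75 to 0.17) in PD. From day 2 to day 4 edgeR did not call Osmr in P (-0.52, SE 0.20, adjusted p = 0.109) or PD (-0.62, SE 0.19, adjusted p = 0.0628). The PD value passed with no composition factor (-0.72, adjusted p = 0.0381) and with only the libraries compared (-0.64, adjusted p = 0.0375). With the term for the within-group component, chosen after seeing the data, both arms passed (-0.51 and -0.61, adjusted p = 0.00852 and 0.00215). Only at day 12 was Osmr called below unwounded skin, at 40.2 ± 16.4 CPM in P (log2 -0.69, SE 0.22, adjusted p = 0.0132) and 33.8 ± 8.74 CPM in PD (-0.93, SE 0.22, adjusted p = 0.00113).

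The P call was lost without unwounded replicate 3 (-0.60, adjusted p = 0.0652). It was also lost with only the libraries compared (-0.67, adjusted p = 0.0813) and with no composition factor in the scaling (-0.44, adjusted p = 0.123). Scaling with no composition factor moved the median log2 change of all genes in this comparison from 0.10 to 0.37. From day 4 to day 12 Osmr fell in PD (-0.64, SE 0.19, adjusted p = 0.00822) and was not called in P (-0.50, SE 0.19, adjusted p = 0.0574). P day 12 replicate 1 held 71.3 CPM against at most 44.1 CPM in the others, and without it the P change was -0.75 with an adjusted p of 0.00141. With no composition factor the PD fall was -0.45 and was not called (adjusted p = 0.0744).

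Stat3, the transcription factor at the end of the pathway, rose by less than 1 log2 unit, with little spread between libraries. It stood at 208.0, 232.0 and 199.8 CPM in unwounded skin and at 426.0, 375.0, 433.0, 369.7 and 382.0 CPM in P at day 2. PD held 429.7, 409.0, 337.0, 362.0 and 396.0 CPM on that day. All wound libraries of days 2 and 4 lay above all unwounded ones.

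The log2 changes of Stat3 against unwounded skin were 0.89 (SE 0.17, adjusted p = 0.000101) in P and 0.86 (SE 0.17, adjusted p = 0.000196) in PD at day 2. At day 4 they were 0.62 (SE 0.17, adjusted p = 0.00413) and 0.70 (SE 0.17, adjusted p = 0.000886). From day 4 to day 12 Stat3 fell in P (-0.89, SE 0.14, adjusted p = 2.43e-05) and in PD (-1.03, SE 0.13, adjusted p = 6.09e-07). The day 12 means, 177.0 ± 46.0 CPM in P and 171.0 ± 34.6 CPM in PD, were not called against unwounded skin (-0.27 and -0.32, adjusted p = 0.168 and 0.0974). Without PD day 12 replicate 1 the PD value passed as lower (-0.41, adjusted p = 0.0361). These are transcript levels and say nothing of phosphorylated protein.

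Socs3, a direct target of STAT3 whose protein blocks gp130 signalling, rose more than Stat3. Unwounded skin held 69.0, 50.2 and 73.6 CPM. Day 2 wounds held 341.0, 246.0, 323.0, 312.0 and 247.0 CPM in P and 333.0, 223.0, 229.0, 290.3 and 402.0 CPM in PD. All 10 libraries lay above all unwounded ones.

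Socs3 changed by 2.19 (SE 0.36, adjusted p = 1.42e-05) in P and 2.20 (SE 0.36, adjusted p = 1.72e-05) in PD at day 2 on the log2 scale. At day 4 it stood at 240.5, 223.0, 140.4, 456.0 and 226.0 CPM in P (log2 2.00, SE 0.36, adjusted p = 4.84e-05) and from 245.0 to 536.0 CPM in PD (median 329.0; log2 2.42, SE 0.36, adjusted p = 2.74e-06). To day 12 it fell in P (-2.24, SE 0.28, adjusted p = 1.43e-06) and in PD (-3.02, SE 0.28, adjusted p = 4.14e-09). Day 12 libraries ran from 36.2 to 98.6 CPM in P and from 24.9 to 70.4 CPM in PD, overlapping unwounded skin, and neither arm was called against it (-0.24 and -0.60, adjusted p = 0.554 and 0.121). Without PD day 12 replicate 2 the PD value passed as lower (-0.80, adjusted p = 0.0368).

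**Figure D2:**
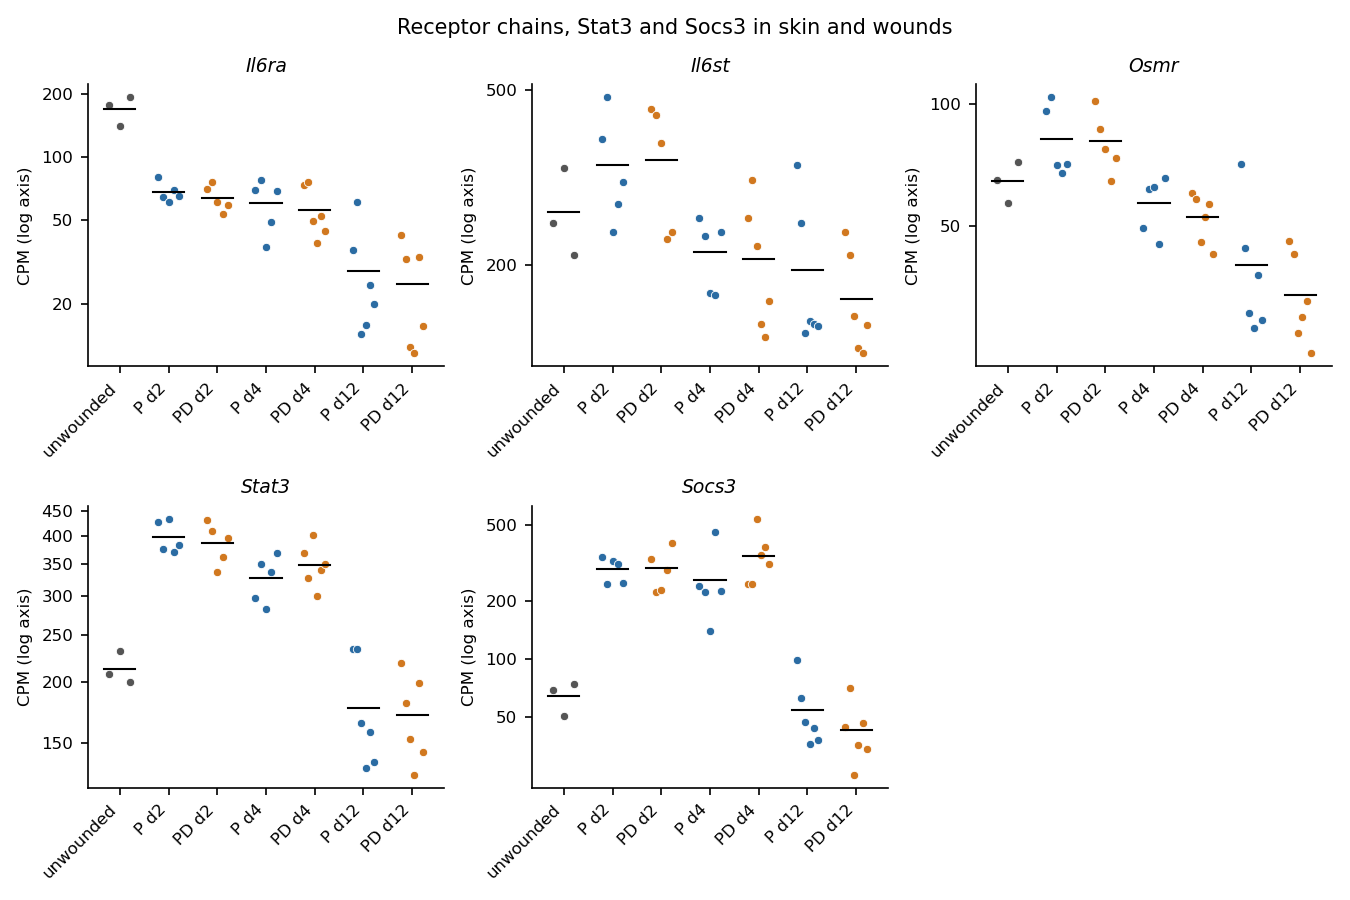
Levels of Il6ra, Il6st, Osmr, Stat3 and Socs3 in CPM (log axis) in each library, coloured as for the ligands, with group means as black lines. Il6ra was at most 80.1 CPM in any wound library against 140.5 CPM or more in unwounded skin, while Stat3 and Socs3 stood high at days 2 and 4 and near unwounded skin at day 12.

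Osm and Socs3 were highest in the same library in every wound group but P day 2. There replicate 3 held the most Osm (190.2 CPM) and replicate 1 the most Socs3 (341.0 CPM). Within PD day 4, replicate 3 held the most of both, at 426.0 CPM of Osm and 536.0 CPM of Socs3, and within P day 4, replicate 4 did, at 237.0 and 456.0 CPM. The lowest P day 4 library in both was replicate 3, at 56.4 and 140.4 CPM, which is the library with hair follicle genes. In unwounded skin, by contrast, Socs3 was at 50.2 to 73.6 CPM where Osm was at most 0.336 CPM.

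**Figure D3:**
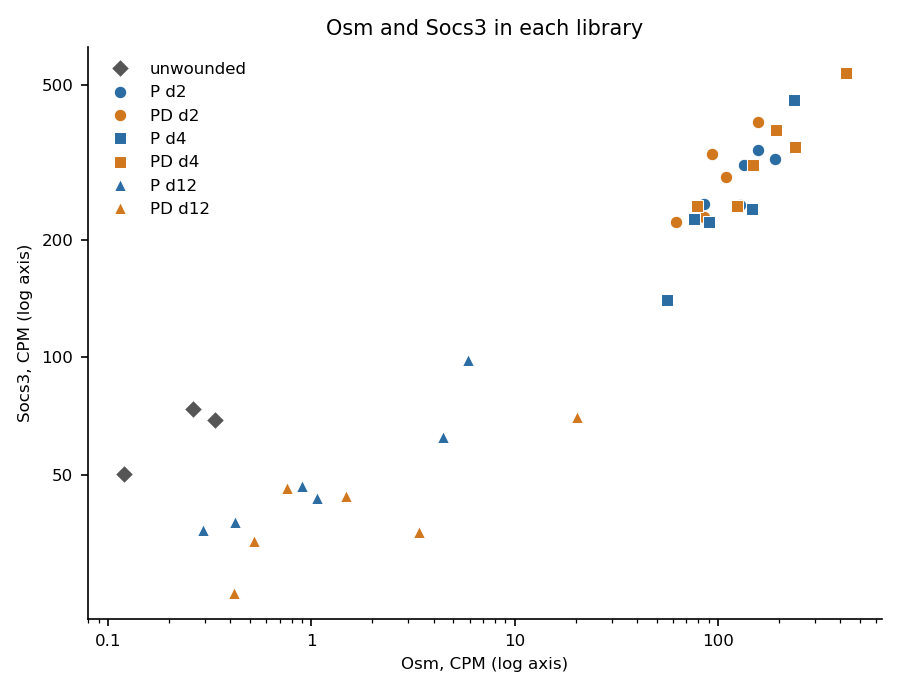
Osm against Socs3 in CPM (both axes log) in each of the 36 libraries, by group. Day 2 and day 4 wounds lie together at 56.4 CPM of Osm and 140.4 CPM of Socs3 or more, day 12 wounds reach down to 24.9 CPM of Socs3, and the 3 unwounded libraries lie at the far left at 50.2 to 73.6 CPM of Socs3.

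Counted over the 9 genes, both arms gave the same picture at days 2 and 4: Il6, Osm, Lif, Il11, Stat3 and Socs3 higher than unwounded skin, Il6ra lower, and Il6st and Osmr not called. At P day 2 these 6 higher and 1 lower compare with 22.3% and 19% of all tested genes. The shares of all genes called higher and lower were 21% and 18.4% at PD day 2, 23.6% and 19.7% at P day 4, and 25.4% and 21.8% at PD day 4. At day 12, P had 4 members higher (the ligands) and 2 lower (Il6ra and Osmr), against 23.7% and 20% of all genes. PD had 2 higher (Il6 and Osm) and the same 2 lower, against 24.2% and 20.7%. These comparisons share the 3 unwounded libraries.

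Between day 2 and day 4 edgeR called 0 of 9 members in P, where 8.45% of all genes were called, and 0 of 9 in PD, where 4.26% were. At an unadjusted p under 0.05 there were 3 in P (Il6, Il6st and Osmr) and 4 in PD (those and Il11), and DESeq2's Wald test called 0 in both arms. From day 4 to day 12, 5 members fell in P (Osm, Lif, Il6ra, Stat3 and Socs3), with 12.6% of all genes called lower. In PD 8 fell, all but Il6st, with 15.6% of all genes called lower. None rose in either arm, where 11.2% and 15.7% of all genes were called higher.

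**Figure D4:**
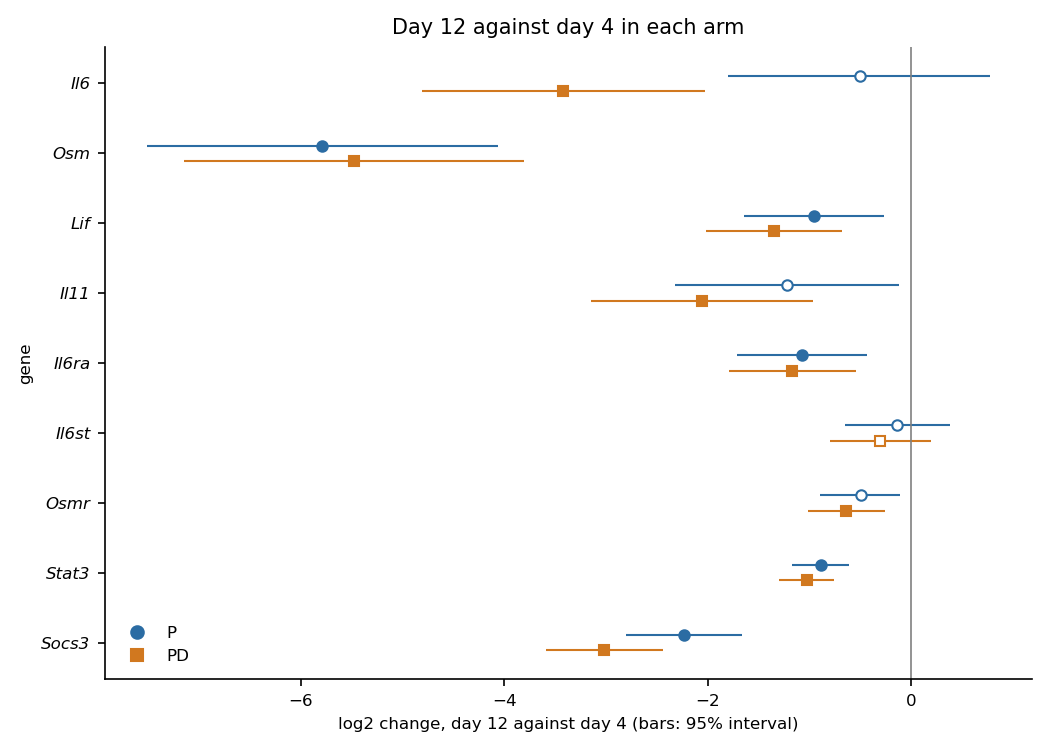
The log2 change from day 4 to day 12 of each gene in P (blue circles) and PD (orange squares), with 95% intervals; filled symbols were called at an adjusted p under 0.05. All 18 values are below 0, from -0.14 for Il6st in P to -5.79 for Osm in P, and 13 were called.

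PD and P wounds were then compared on each day. edgeR called 0 of 9 members at day 2, day 4 and day 12, as it called 0% of all tested genes on each day. At an unadjusted p under 0.05 there were 0, 0 and 1 members, and DESeq2 called 0 on each day. Over all genes, 793, 2369 and 1022 had an unadjusted p under 0.05 on the 3 days, and DESeq2 called 23, 174 and 0.

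The intervals show what differences the data leave room for. For Stat3 they were narrow: the 95% interval of PD minus P in log2 ran from -0.33 to 0.26 at day 2, -0.19 to 0.37 at day 4 and -0.32 to 0.22 at day 12. For Socs3 they ran from -0.57 to 0.59, -0.14 to 0.98 and -0.88 to 0.18. For Osm they were wide, from -1.95 to 1.05, -0.72 to 2.19 and -0.42 to 2.50, and the day 12 difference of 1.04 (SE 0.72) was -0.82 without PD day 12 replicate 2. Among the receptor chains, Il6ra differed by -0.09, -0.11 and -0.21, Il6st by 0.04, -0.05 and -0.22 and Osmr by -0.02, -0.11 and -0.25 on the 3 days. Lif differed by -0.06, 0.13 and -0.25, and Il11 by -0.88, 0.27 and -0.57. At day 4 the Il11 difference was -0.70 without PD day 4 replicate 5 and 1.09 without P day 4 replicate 5, so its direction rests on these libraries. The Lif difference also changed sign on each day when single libraries were left out.

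Il6 at day 12 was the member with the unadjusted p under 0.05. It stood lower in PD by 2.41 in log2 (SE 0.66, 95% interval -3.77 to -1.06), with an unadjusted edgeR p of 0.00105 and an adjusted p of 0.884. Group means were 0.407 ± 0.257 CPM in PD and 2.19 ± 3.15 CPM in P (n = 6 each). The P mean rests on replicate 1, and without that library the difference was -1.16 with an adjusted p of 0.995. P day 12 replicate 1 also held the group's highest Osm, Lif, Il11, Il6st, Osmr and Socs3 and its highest fibroblast marker sum (35972 CPM). Its sum of monocyte and macrophage markers was 1833 CPM, against 155.0 to 1795 CPM in the other 5. The part of that content in its cytokine levels was not tested.

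**Figure D5:**
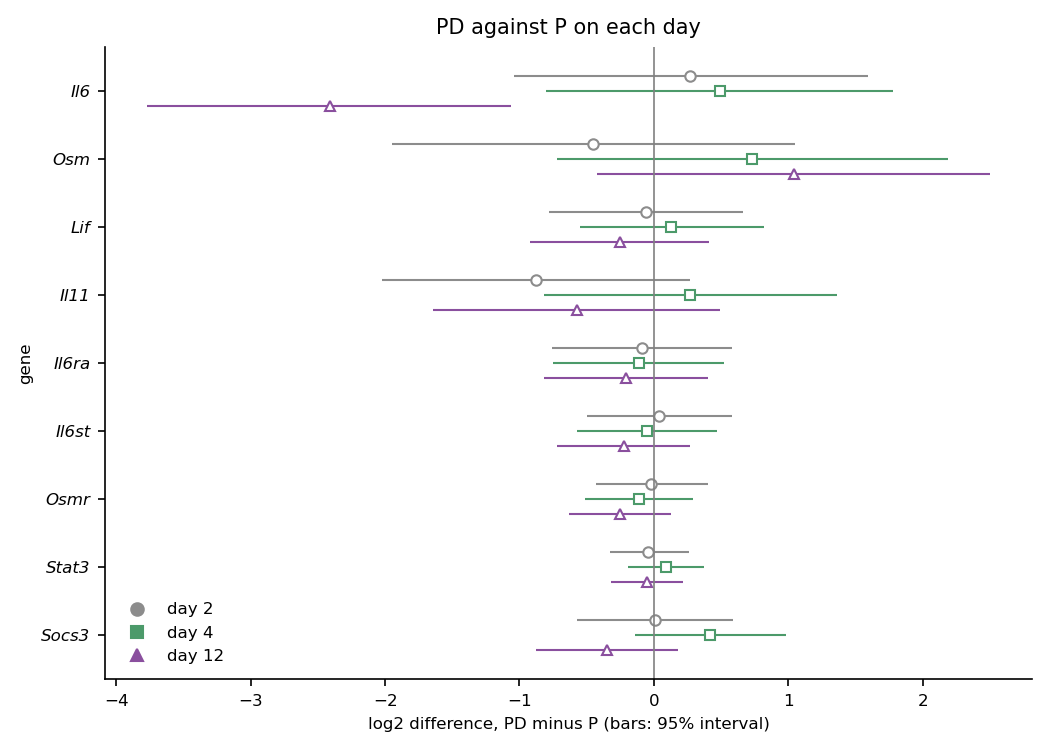
The difference between PD and P of each gene in log2 at day 2 (grey circles), day 4 (green squares) and day 12 (purple triangles), with 95% intervals; open symbols were not called. Of the 27 intervals only that of Il6 at day 12 (-3.77 to -1.06) leaves out 0, and its adjusted p was 0.884.

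The change of the arm difference over time was tested as an interaction. From day 2 to day 4 it was called in 0 of 9 members and 0% of all genes by edgeR, with 0 members at an unadjusted p under 0.05 and 0 called by DESeq2. From day 4 to day 12 it was also called in 0 of 9 and 0% of all genes, with Il6 (-2.90, SE 0.92) and Socs3 (-0.77, SE 0.38) at an unadjusted p under 0.05 (0.00356 and 0.0498) and DESeq2 calling 0. The falls called in PD and not in P between these days (Il6, Il11 and Osmr) are thus not shown to differ between the arms. Without P day 12 replicate 1 the Il6 interaction was -1.65.

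Levels of different genes were compared per transcript length, as TPM, which scales counts by summed exon lengths. In unwounded skin Stat3 stood at 75.7 ± 2.14 TPM, Il6ra at 69.0 ± 14.1, Socs3 at 65.2 ± 15.5 and Il6st at 60.5 ± 11 TPM (SD, n = 3), whose ranges overlapped in part. Osmr was lower, at 18.8 ± 3.14 TPM, and Lif (2.11), Il11 (1.27) and Osm (0.382) stood between 0.179 and 2.85 TPM in all 3 libraries.

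At P day 2 the TPM order had changed. Socs3 led at 305.0 ± 40.6 TPM, followed by Osm at 227.0 ± 58.7, Stat3 at 146.0 ± 12.4 and Il6st at 82.1 ± 30.1 TPM (n = 5). Il6 stood at 15.5 ± 5.07 TPM, Lif at 9.83 ± 1.47 and Il11 at 9.45 ± 3.27 TPM, so Osm was by far the highest of the member ligands. Clcf1, a ligand of the family outside the members, was not ranked in TPM. It held 57.7 CPM at P day 2, against 139.0 CPM of Osm. Il6ra (28.7 ± 3.95 TPM) was then below Il6st in every library, with ranges of 23.8 to 34.3 and 52.9 to 128.0 TPM. In unwounded skin the ranges of these receptor chains had overlapped, at 53.8 to 81.6 and 50.9 to 72.5 TPM. By P day 12 Il6ra was at 14 ± 8.93 TPM and Il6st at 54.3 ± 24.6 TPM (n = 6).

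The genes whose pattern over the 36 libraries was most like each member were found as those with the smallest mean absolute difference in centred log2 CPM, given without a test. For Osm they were Cd14 (0.28), which encodes a lipopolysaccharide co-receptor of myeloid cells, Mirt2 (0.36) and Hdc (0.36), the enzyme that makes histamine. Osm itself deviated from its mean by 3.36 on average. For Socs3 they were Mxd1 (0.26), Nfkbiz (0.27) and Zfp36 (0.31), the last a protein that destabilises cytokine mRNAs, against a mean deviation of 1.25. Stat3 had the smallest differences, to Skap2 (0.12), Carhsp1 (0.13) and Pitpna (0.13), with a mean deviation of 0.50. Those of Il6 were larger, to Sh2d5 (0.74), Msr1 (0.80) and Gm9733 (0.83), at a mean deviation of 1.99. The size of such a difference depends on how much a gene varies, so it does not rank the members by likeness. Il11 lay nearest to Ppp1r18 (0.48), Itga5 (0.48) and Cd44 (0.49), and Ppp1r18 (0.31) was also among the nearest to Lif. These likenesses are measured over groups that differ strongly, so any gene with the same course over days comes near.

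Of the other ligands of the family, 5 of 7 were tested, and in each arm 3 were higher and 2 lower at day 2. Medians were 2.69 in P and 2.86 in PD, against 0.02 for all genes. The shares of all genes called higher and lower were 22.3% and 19% in P, and 21% and 18.4% in PD. Clcf1, a ligand of the ciliary neurotrophic factor receptor, rose from 8.97 ± 1.26 CPM to 57.7 ± 19.6 CPM at P day 2 and 65.4 ± 20.5 CPM at PD day 2 (log2 2.69 and 2.86, adjusted p = 7.62e-08 and 4.07e-08). Ebi3, the shared subunit of interleukins 27 and 35, rose from 0.883 ± 0.442 to 9.18 ± 3.82 and 7.23 ± 2.08 CPM. Ctf1, cardiotrophin 1, fell from 11.4 ± 0.0238 to 6.0 ± 1.89 and 6.12 ± 2.11 CPM (adjusted p = 0.0177 and 0.0228).

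Of the 5 other receptors, 0 were higher and 2 lower at P day 2 and 0 and 1 at PD day 2 (medians -0.81 and -0.77), where 19% (P) and 18.4% (PD) of all genes were lower. Il31ra, the receptor of the itch cytokine interleukin 31, fell from 60.6 ± 3.68 CPM to 7.36 ± 3.80 CPM at P day 2 and 8.39 ± 2.41 CPM at PD day 2, and was at 2.80 ± 1.46 and 1.99 ± 1.37 CPM at day 12. Its log2 changes were -3.04 (adjusted p = 1.15e-05) and -2.85 (adjusted p = 3.09e-05) at day 2. Lifr fell from 93.0 ± 6.45 to 46.0 ± 15.3 CPM in P (log2 -1.02, adjusted p = 0.0449) and stood at 51.8 ± 18.2 CPM in PD (-0.85, adjusted p = 0.10). At day 4 edgeR called Lifr lower in PD (-1.32, adjusted p = 0.00624) and not in P (-0.92, adjusted p = 0.0669). At day 12 it was lower in both arms (-1.70 in P and -1.89 in PD, adjusted p = 0.000784 and 0.000253). Cntfr was not called at day 2 (-0.81, adjusted p = 0.186 in P) and was higher at day 12, at 72.8 ± 33.5 and 70.4 ± 21.1 CPM against 17.6 ± 3.02 CPM in unwounded skin (log2 2.05 and 2.00). Hair follicle markers ran from 455.0 to 9098 CPM in P and from 568.0 to 8247 CPM in PD on that day, against at most 1.1 CPM in unwounded skin. The part of hair follicles in the Cntfr level was not tested. Il11ra1, which encodes the receptor chain of interleukin-11 and was chosen after its values were seen, was the other receptor called higher at day 12 (1.26 in P and 1.28 in PD, adjusted p = 2.52e-05 and 2.06e-05).

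Among 9 kinases and other STATs, 3 were higher and 0 lower at P day 2 and 4 and 0 at PD day 2, where 22.3% and 19% (P) and 21% and 18.4% (PD) of all genes were. At day 12 none were higher and 4 (P) and 5 (PD) were lower. On that day 23.7% (P) and 24.2% (PD) of all genes were higher, and 20% and 20.7% were lower. Jak2, a kinase of gp130 complexes, stood at 42.8 ± 3.39 CPM in unwounded skin and 80.5 ± 11.9 CPM at P day 2 (log2 0.91, adjusted p = 0.00227). Stat4 rose from 0.334 ± 0.106 to 2.71 ± 1.22 CPM (adjusted p = 0.000133). Stat5b was not called at P day 2 (log2 -0.43, adjusted p = 0.0849) and was lower at day 12 in P and PD (-1.43 and -1.18, adjusted p = 5.87e-07 and 1.22e-05). Adam17, a protease that sheds the interleukin-6 receptor, rose at P day 2 (0.67, adjusted p = 0.0113) and stood at 0.22 (adjusted p = 0.411) at PD day 2, a difference between arms that was not called.

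Of 13 other inhibitors, 5 were higher and 2 lower at day 2 in each arm, with medians of 0.13 and 0.29, beside the same shares of all genes (22.3% and 19% in P, 21% and 18.4% in PD). Socs1 rose from 4.44 ± 1.32 CPM to 13 ± 2.60 CPM in P and 16.8 ± 3.32 CPM in PD, and unlike Socs3 it was still called at day 12 (log2 1.25 and 1.51, adjusted p = 0.00026 and 3.18e-05). The phosphatase genes Ptpn1 and Ptpn2 were likewise called at day 12 in P (0.72 and 0.36) and PD (0.46 and 0.36). Ptpn6, a phosphatase of blood cells, rose by 1.82 (P) and 1.34 (PD) at day 2 and was not called at day 12.

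Genes commonly given as STAT3 targets moved with the ligands. Of 18, 15 were higher and 1 lower at P day 2 and 14 and 1 at PD day 2. Their medians were 1.77 and 1.54, against 0.02 for all genes. Of all genes, 22.3% were higher and 19% lower at P day 2, and 21% and 18.4% at PD day 2. From day 4 to day 12, 14 targets fell and 1 rose in P, and 15 fell and 1 rose in PD. Between these days 12.6% (P) and 15.6% (PD) of all genes were called lower, and 11.2% and 15.7% higher. Timp1, an inhibitor of matrix proteases, rose from 1.32 ± 0.202 CPM to 301.0 ± 46.8 CPM at P day 2 and 176.0 ± 39.3 CPM at PD day 2 (log2 7.85 and 7.07, adjusted p = 4.91e-09 and 2.15e-08). Junb, an AP-1 subunit, rose from 72.6 ± 14.2 to 761.0 ± 211.0 and 632.0 ± 211.0 CPM, and Bcl3, a coactivator of NF-kB, from 6.06 ± 0.827 to 84.1 ± 20.5 and 82.1 ± 18 CPM. At day 12, 6 targets were still higher in each arm, among them Timp1 (5.70 in P and 5.60 in PD). On that day 2 targets were lower in P and 3 in PD. The shares of all genes higher and lower were 23.7% and 20% in P, and 24.2% and 20.7% in PD. The median of the targets was 0.37 in P and 0.09 in PD, against 0.1 and 0.09 for all genes. Most of these genes are known to answer to other signals as well.

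Of 13 tested acute phase genes, which interleukin-6 is known to induce in liver, 7 were higher and 1 lower at P day 2. At PD day 2, 6 were higher and 1 lower, and in both arms the rest were not called. Medians were 4.16 and 4.30, against 0.02 for all genes. The shares of all genes called higher and lower were 22.3% and 19% in P, and 21% and 18.4% in PD. Saa3, a serum amyloid A gene made outside the liver, rose from 0.0191 ± 0.0187 CPM to 600.4 ± 412.0 CPM in P and 257.0 ± 106.0 CPM in PD. Lcn2, an iron-binding protein of neutrophils and epithelium, rose from 0.825 ± 0.125 to 355.0 ± 78.1 and 217.0 ± 44.0 CPM, and at day 12 it was at 4.59 ± 1.80 and 7.26 ± 3.96 CPM. Of the 68 genes in these 7 lists 65 were tested, and 0 were called between PD and P on any day by edgeR.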

How the data were processed

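The members, gene lists and tests were chosen with earlier results of these data known. The deposited values are raw counts per gene. Per the submitters' processing notes, Trimmomatic, HISAT2 2.1.0, SAMtools 1.9 and HTSeq were used with GRCm39; the annotation release and the strand setting are not given in the sources used here. Of 55414 gene IDs, 98.8% were found in GENCODE M39, which gave positions and exon lengths.

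The main test was the robust quasi-likelihood test of edgeR 4.0.16 under R 4.3.3, with TMM scaling, on the 20657 genes that passed filterByExpr (minimum count 10, minimum total 15). One model with 7 groups over all 36 libraries gave 15 comparisons, with Benjamini-Hochberg adjustment over all tested genes. Totals of 11.807 to 58.376 M counts limit the precision of the lowest genes. A fold against a group at 0 was set against 3 counts over that group and covers counting error only. No 2 replicates were alike within sampling noise (lowest chi-square per degree of freedom 12.35). Scripts were tested on simulated data.

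Named were all 9 members, up to 4 genes per pathway list with the smallest adjusted p at P day 2, and the 3 genes most like each member (log prior count 2). Alternatives were DESeq2 1.42.0, its size factors, no composition factor, no filter, only the libraries compared, a replicate block and each library left out; a term for the first within-group component was added after seeing the data. One gene of the pathway lists is counted in its list and not reported here by name.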

Additional observations from a re-analysis of the deposited data

Results flagged for a closer look

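In 8 of 54 gene and group combinations (4 to 6 libraries each), the highest library lay beyond Dixon's 95% limit on the CPM scale. By chance that limit is passed in about 1 in 20 for independent, normally distributed values. CPM values can be skewed to the high side and the genes share the same libraries. The 8 of 54 can therefore not be set against that share. P day 12 replicate 1 was the library in 3 of them, with 8.53 CPM of Il6 (next 1.91), 5.42 CPM of Il11 (next 2.16) and 71.3 CPM of Osmr (next 44.1). P day 4 replicate 5 was the library in another 2, with 8.19 CPM of Il6 (next 2.49) and 15.5 CPM of Il11 (next 4.44). PD day 4 replicate 5 held 23.5 CPM of Il11 (next 5.23). In PD day 12, replicate 1 held 10.2 CPM of Lif (next 5.50) and replicate 2 held 20.3 CPM of Osm (next 3.38).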

How the results depend on the processing

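Of 2493 recomputed values of the 9 genes, 2425 kept their call, 44 lost it, 24 gained it and 0 called ones changed sign; signs of uncalled differences were not followed. DESeq2's Wald test and DESeq2 size factors changed 0 member calls. The cause of the changes below was not tested. P day 12 against unwounded skin had 1 member lower with no composition factor, with only the libraries compared and with the replicate block, and 2 higher with no filter. PD day 12 against unwounded skin had 1 higher with only the libraries compared, and 0 higher and 1 lower with the block. P day 4 against day 2 had 2 members lower and 3358 genes called with the component term, and 1004 genes with only the libraries compared. P day 12 against day 4 had 3 lower with only the libraries compared and with the block. PD day 4 against day 2 had 1 lower with no composition factor, only the libraries compared or the block, and 2 with the component term. It had 527 genes called with no filter, 2513 with the component term, 1568 with DESeq2, 360 with only the libraries compared and 381 with the block.

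The labels do not say that a replicate number marks a shared animal or batch, and not every pair of same-numbered libraries correlated over 0.1 (11 of 16 did, range -0.25 to 0.54; 4 had their own number as best match), so the numbers were not taken as pairs. Replicates 1 and 2 nonetheless scored below 0 on the within-group component in all 6 wound groups. With the replicate block 12 member calls changed. Calls not made with it were Il6 (7.15, adjusted p = 0.0786), Osm (3.51, 0.19) and Osmr (-0.77, 0.105) at PD day 12, Il11 (1.89, 0.0543) and Osmr (-0.47, 0.252) at P day 12 and Stat3 (0.83, 0.059) at PD day 4, all against unwounded skin. From day 4 to day 12 they were Lif (-0.83, 0.324) and Stat3 (-0.83, 0.0647) in P and Il11 (-1.58, 0.0519) in PD. Calls gained were Il6st (0.78, 0.00676) and Osmr (0.53, 0.0252) at PD day 2 against unwounded skin and Il6st from PD day 2 to day 4 (-0.73, 0.0363). With the replicate block, 5075 genes were called at P day 12, 4064 at PD day 4 and 2629 at PD day 12 against unwounded skin, 918 between P day 12 and day 4, and 1 between PD and P at day 2.

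Between PD and P, DESeq2 called 23 genes at day 2 and 174 at day 4, and the component term gave 1474 at day 4 and 129 at day 12. For the interactions the component term gave 4 genes from day 2 to day 4, and DESeq2 called 78 from day 2 to day 4 and 87 from day 4 to day 12. With single libraries left out, members higher at P day 12 against unwounded skin ran from 1 to 4 and lower from 1 to 2, and lower at PD day 12 from 2 to 4. From day 2 to day 4, members lower ran from 0 to 1 in both arms and genes called from 937 to 2444 in P and from 436 to 1142 in PD. Members lower from P day 4 to day 12 ran from 4 to 8, and genes called between PD and P at day 4 from 0 to 31. Depth limited Il6 in unwounded skin, where 3 counts over the group come to 0.0313 CPM.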

Other observations

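Within the 3 groups of 6 libraries, the level of each ligand was set against that of Socs3 on the log2 scale, 12 relations in all, chosen after the values were seen. Osm and Socs3 gave Pearson's r of 0.94 in PD day 4 (exact permutation p = 0.00417, adjusted 0.0167, Spearman's rho 0.94 with p = 0.0167), 0.93 in P day 12 (exact permutation p = 0.00278, adjusted 0.0167, rho 0.94 with p = 0.0167) and 0.81 in PD day 12 (exact permutation p = 0.0556, adjusted 0.0834, rho 0.77 with p = 0.103). Without the 2 libraries farthest from the median of Osm, r was 0.82, 0.93 and 0.81. Lif in P day 12 (r 0.95, rho 0.94, adjusted permutation p = 0.0167, 0.90 without 2) and Il11 in PD day 12 (r 0.92, rho 0.94, adjusted permutation p = 0.025, 0.93 without 2) also passed. Il6 did not pass in any of the 3 groups, with r of 0.02 in PD day 4 (adjusted permutation p = 0.983), 0.84 in P day 12 (0.0785) and 0.86 in PD day 12 (0.0785). In P day 12 the Il6 value fell to 0.08 without the 2 farthest libraries, so it rests on them. Neutrophil marker sums were highest in the library with the most Osm in PD day 4 and PD day 12 and not in P day 12, where Osm was highest in replicate 1 and the neutrophil sum in replicate 2, and their part in these relations was not tested.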
